A study of Oryza sativa with 6 samples.

Results

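Both transgenic rice lines of the study, one overexpressing OsUBA and one carrying an OsUBA RNA interference construct, were treated as a single transgenic group and set against untransformed rice. Members of the group were chosen by the sample titles alone: 2 arrays of OsUBA-overexpressing rice and 2 arrays of OsUBA-RNA interferenced rice, so 4 of the 6 arrays of the series, against the other 2, of the cultivar Nipponbare. All plants were seedlings without treatment, sampled at the 4-leaf stage after growth at 28 °C, and each group had 2 biological replicates. Total RNA was hybridised to Affymetrix rice arrays, on which a probe set measures a transcript in 1 colour.

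Overexpression raises the transcript of a target gene, and RNA interference lowers it by directing the silencing machinery to that transcript. A transcript that follows the dose of the target moves in opposite ways in lines of these kinds, and pooling them leaves what they have in common. Rice lines of either kind are usually regenerated from transformed callus with a marker gene for selection, and plants from tissue culture can carry heritable changes of their own. The labels give neither the promoter, the vector nor the number of independent transformants behind each line, and no line transformed without an OsUBA sequence was analysed here. Effects of transformation and effects shared by both OsUBA constructs therefore cannot be told apart. In whole seedlings, fewer cells of a type and less RNA per cell cannot be told apart either. OsUBA itself was not analysed here, because the annotation used names no probe set for it.

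The 6 arrays had similar medians (log2 5.67 to 5.92), and 34231 to 36277 probe sets per array reached log2 5. Over the 40466 probe sets that reached log2 5 on at least 2 arrays, Pearson's correlation between the replicates of a group was 0.913 to 0.916. Between overexpression and RNAi arrays it was 0.852 to 0.892, and between transgenic and wild-type arrays 0.886 to 0.911, so the lines were no more like each other than either was like wild type. The median SD over probe sets was 0.47 over the 4 transgenic arrays and 0.30 over the 2 wild-type arrays, while it was 0.27 within the overexpression line and 0.28 within the RNAi line. The summed level of 3 shoot markers was log2 16.21 to 16.47 in transgenic seedlings and 16.32 to 16.47 in wild type. For 9 root markers it was 10.95 to 11.74 in transgenic seedlings and 11.40 to 11.62 in wild type. Shoot tissue was thus present on every array, and the groups overlapped in both marker sums. The median log2 change of single root markers was -0.44 (-0.60 in the overexpression line, -0.43 in the RNAi line), with 2 of 9 positive. Over all genes the median was -0.01. Whether the groups differed in their share of root tissue was not tested.

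Few transcripts separated both transgenic lines from wild type beyond the spread among the 4 transgenic arrays. With both lines pooled, 8 of the 40466 probe sets (0.0198%) passed limma's moderated test at a Benjamini-Hochberg adjusted p of 0.05: 6 were higher (0.0148%) and 2 lower (0.00494%) in transgenic seedlings. At an unadjusted p under 0.05 there were 1456 probe sets. This was fewer than the 1 in 20 that such a limit passes when nothing differs. The count of 8 depended on modelling the spread as a function of brightness: without that trend 0 probe sets passed. The smallest adjusted p from limma was then 0.0585. At an unadjusted p under 0.05 it gave 1704 probe sets, also fewer than 1 in 20. In all 8 the 4 transgenic arrays lay on 1 side of both wild-type arrays, a pattern that 12% of all probe sets tested also showed. The 8 changes were large, 4.35-fold at the smallest and at least 130-fold at the largest, and in each of them both lines moved the same way.

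The lowest transgenic values belonged to a pair of probe sets without a gene in the annotation table. Os.14731.1.S1_at had log2 values of 2.30 and 3.72 in the overexpression line and 3.19 and 2.1 in the RNAi line, against 12.02 and 12.04 in wild type. It was among the bright probe sets of both wild-type arrays and fell below the log2 floor of 5 on all 4 transgenic arrays. The log2 change was -9.20 ± 0.56 (SE; limma, adjusted p = 0.00907), and with the transgenic mean counted as 5 it was at least 130-fold lower. Os.16593.1.S1_at had 5.31 and 5.17 in the overexpression line and 4.48 and 3.48 in the RNAi line, against 12.06 and 11.76 in wild type. It fell by 7.30 ± 0.53 on the log2 scale (limma, adjusted p = 0.0138), at least 120-fold. The overexpression arrays were the higher of the transgenic values here, by 1.26 (95% interval 0.27 to 2.24, without adjustment), but this difference between the lines did not pass over all probe sets (limma, adjusted p = 0.166).

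Among the probe sets that rose, Os.27740.1.S1_at stood highest above wild type. It had 11.62 and 11.71 in the overexpression line and 11.75 and 11.83 in the RNAi line, against 3.37 and 0.83 in wild type. The transgenic arrays lay close together, and both wild-type arrays were under the floor. The log2 change was 9.63 ± 0.61 (limma, adjusted p = 0.00907), at least 106-fold when wild type is counted at 5. The lines differed by -0.12 (overexpression minus RNAi, 95% interval -1.72 to 1.48). Os.20102.1.S1_s_at had 8.26 and 9.0 in the overexpression line and 9.24 and 9.30 in the RNAi line, against 2.02 and 2.90 in wild type. It rose by 6.49 ± 0.44 (limma, adjusted p = 0.00988), at least 15.4-fold. Os.52659.1.S1_at was measured above the floor in every group, with 10.49 and 10.45 in the overexpression line and 10.45 and 10.64 in the RNAi line, against 8.23 and 8.55 in wild type. This was a 4.35-fold rise (log2 2.12 ± 0.19, limma, adjusted p = 0.0421). None of these 3 probe sets has a gene in the annotation table, so 5 of the 8 calls have no listed gene, compared with 49.2% of all probe sets tested.

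The other 3 rises belong to annotated loci that carry no gene name. LOC4350075 had 10.31 and 10.07 in the overexpression line and 9.80 and 9.50 in the RNAi line, against 6.34 and 6.23 in wild type. It rose 12.4-fold (log2 3.64 ± 0.28, limma, adjusted p = 0.0143), with every transgenic array more than 3 log2 units above both wild-type arrays. LOC4335304 had 10.90 and 11.18 in the overexpression line and 11.67 and 10.91 in the RNAi line, against 8.10 and 8.45 in wild type, a 7.4-fold rise (log2 2.89 ± 0.27, limma, adjusted p = 0.0443). Its other probe sets had log2 changes of 2.34 (limma, adjusted p = 0.056) and 3.71 (adjusted p = 0.147), the same direction without passing. LOC9267168 had 8.12 and 8.14 in the overexpression line and 8.90 and 8.77 in the RNAi line, against 5.0 and 4.72 in wild type. It rose by 3.62 ± 0.35 on the log2 scale (limma, adjusted p = 0.0484), at least 11.2-fold. Its probe sets disagreed in size: the other 2 had log2 changes of 2.66 and 0.98, and neither passed (limma, adjusted p = 1 for both).

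**Figure D1:**
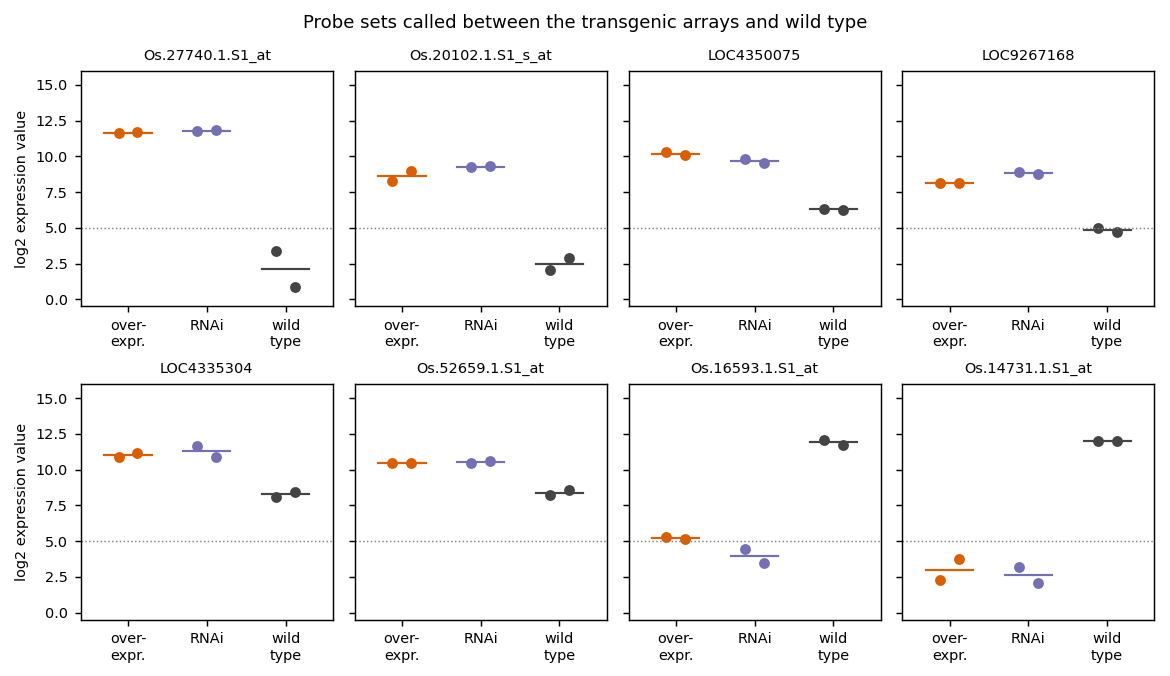
Log2 expression values of the 8 probe sets that passed the pooled test, 1 panel each, with points for the 2 overexpression, 2 RNAi and 2 wild-type arrays, a bar at each group's mean and a dotted line at the log2 floor of 5. In every panel the 4 transgenic points lie together, on 1 side of both wild-type points.

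Single arrays decided many of these calls. Left out in turn, overexpression replicate 1 left 5 of the 8 past the threshold and RNAi replicate 2 also left 5, while without overexpression replicate 2 only 1 stayed and without RNAi replicate 1 none did. Without either wild-type array, 1 of the 7 that could still be tested stayed. The directions held in all of these fits: the log2 change of Os.27740.1.S1_at lay between 8.35 and 10.9 and passed in 4 of 6, and that of LOC4350075 lay between 3.51 and 3.78 and passed in 2 of 6. LOC4335304, LOC9267168 and Os.52659.1.S1_at passed in none of the 6 fits with an array left out.

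Fitting each line with its own mean separated what the lines share from what distinguishes them. Against the same 2 wild-type arrays, 144 probe sets (0.356%) passed in the overexpression line and 313 (0.773%) in the RNAi line. The comparisons share their wild-type arrays, so their calls are not independent. Between overexpression and RNAi seedlings, 1725 probe sets (4.26%) differed, more than either line had against wild type. The mean of both lines against wild type, with the difference between lines taken out of the spread, gave 28 probe sets (0.0692%), of which 20 were higher (0.0494%) and 8 lower (0.0198%). All 8 pooled calls were among them, and each of these also passed in either line on its own, with adjusted p-values from limma of 0.012 or less.

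Of those 28 probe sets, 13 also differed between the lines and 15 did not pass that test. A called mean over both lines could thus be the work of 1 line. LOC4332782 had 12.52 and 12.21 in the overexpression line and 5.69 and 5.93 in the RNAi line, against 5.84 and 6.15 in wild type. LOC4324833 showed the reverse arrangement, with 14.38 and 14.49 in the overexpression line and 5.79 and 5.83 in the RNAi line, against 13.80 and 13.58 in wild type. Neither is a change that both lines share. Others of the 13 moved the same way in both lines by unequal amounts. OsAffx.22999.1.S1_at had log2 changes of 7.13 in the overexpression line and 3.25 in the RNAi line. LOC4332175 had -1.12 in the overexpression line and -5.52 in the RNAi line. In each of these, only 1 line passed limma's test against wild type on its own. In the 15 without a difference past the threshold, 12 higher and 3 lower, all had groups that do not overlap, and 7 of them were called only in this fit. Os.47371.1.S1_at was the lowest of these 7, with 3.36 and 5.34 in the overexpression line and 1.2 and 2.30 in the RNAi line, against 9.67 and 9.82 in wild type (log2 -6.70, limma, adjusted p = 0.036). The other 6 were higher in transgenic seedlings, by log2 2.23 (Os.49297.1.S1_at) to 3.70 (OsAffx.25936.1.S1_s_at), and included a further probe set of LOC4335304.

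**Figure D2:**
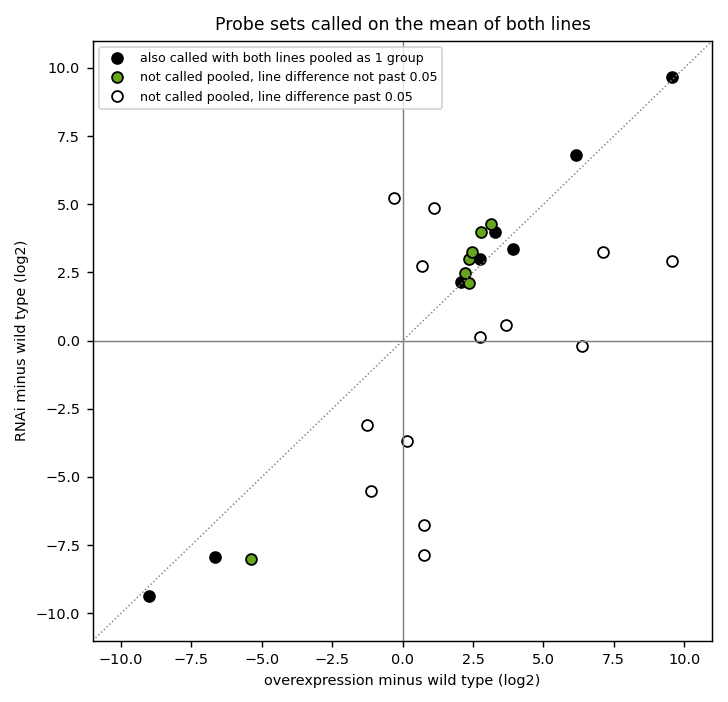
Log2 change of the 28 probe sets called on the mean of both lines, with overexpression minus wild type on the horizontal axis and RNAi minus wild type on the vertical axis, and a dotted line where they are equal. The 8 filled black points, also called with the lines pooled, and the 7 green points lie along the dotted line, with Os.47371.1.S1_at farthest from it, while the 13 open points, whose lines differ at an adjusted p under 0.05, lie away from it.

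Beyond the calls, groups without overlap were common among probe sets that did not pass the test. With 4 transgenic arrays against 2 wild-type arrays, such groups also arise often from the order of the arrays alone. The counts below therefore do not by themselves show changes, and an excess over that was not tested. The groups did not overlap for 1951 probe sets that were higher (4.82%) and 2903 that were lower (7.17%) in transgenic seedlings. On the values as deposited, both lines differed from wild type by 2-fold or more in the same direction, without overlap, for 1403 probe sets (3.47%), of which 837 were higher (2.07%) and 566 lower (1.4%). Most were dim, and their folds rest on values under the floor. Wild type averaged under it in 728 of the 837, and the transgenic arrays averaged under it in 450 of the 566. The filter asked for log2 5 on any 2 arrays, so dim probe sets could enter through the group where they were high. A dim rise could enter by any 2 of the 4 transgenic arrays, while a dim fall mostly needed both wild-type arrays. The numbers of rises and falls are therefore not comparable. With group means under 5 counted as 5, 186 higher (0.46%) and 264 lower (0.652%) probe sets were still 2-fold or more in both lines. On the values as deposited, a transgenic mean of log2 8 or more was reached by 58 of the 837 higher probe sets. A wild-type mean of 8 or more was reached by 50 of the 566 lower ones.

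Loci ranked next after the calls were higher in transgenic seedlings by several-fold, but none passed. LOC4334522 had 9.14 and 9.69 in the overexpression line and 10.17 and 9.85 in the RNAi line, against 1.51 and 5.28 in wild type. Its log2 change was 6.32 ± 0.91 (limma, adjusted p = 0.293), with wild-type replicates that differed more from each other than the transgenic arrays did. Without wild-type replicate 2 it passed (adjusted p = 0.0305), and it also passed with all log2 values under 5 set to 5 (adjusted p = 0.0238), an alternative chosen after seeing the data. LOC4350112 had 7.70 and 7.66 in the overexpression line and 7.97 and 8.02 in the RNAi line, against 4.41 and 2.01 in wild type (log2 4.63 ± 0.64, limma, adjusted p = 0.252). Its other probe set had a change of 1.56. LOC4339394 had 6.25 and 6.28 in the overexpression line and 6.67 and 6.17 in the RNAi line, against 2.17 and 2.48 in wild type, at least 2.53-fold higher with wild type counted at 5 (limma, adjusted p = 0.252). LOC4331023 had 7.05 and 7.34 in the overexpression line and 6.71 and 6.57 in the RNAi line, against 3.80 and 2.75 in wild type, at least 3.78-fold higher (adjusted p = 0.255). Both were under the floor in wild type. LOC4350071 had a log2 change of 2.31 (adjusted p = 0.374).

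PDIL1-1, which encodes a protein disulfide isomerase of the endoplasmic reticulum that helps storage proteins fold in rice endosperm, was singled out after its values were seen. It had 12.10 and 12.14 in the overexpression line and 12.04 and 12.19 in the RNAi line, against 10.26 and 11.02 in wild type. The transgenic arrays were nearly identical and all lay more than 1 log2 unit above the higher wild-type array, but the wild-type arrays were further apart from each other. The log2 change of 1.48 ± 0.23 did not pass (limma, adjusted p = 0.374).

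On the lower side, LOC9272124 had 6.22 and 5.96 in the overexpression line and 5.55 and 4.79 in the RNAi line, against 8.71 and 8.55 in wild type (log2 -3.00 ± 0.46, limma, adjusted p = 0.374). A second probe set of this locus had -0.51. CKX11, a cytokinin oxidase/dehydrogenase, the kind of enzyme that breaks down the hormone cytokinin, had 10.55 and 10.44 in the overexpression line and 10.56 and 10.42 in the RNAi line, against 11.26 and 11.29 in wild type. Replicates were tight in all 3 groups and the lines differed by 0.01, yet the log2 change of -0.78 ± 0.16 did not pass (limma, adjusted p = 1). Its dimmer second probe set had -1.07. The other 6 loci named on this side had log2 changes of -0.71 (LOC4348273) to -1.76 (LOC4329640), all with an adjusted p of 1. For 1 of them, LOC9271926, the probe sets disagreed in sign, with -1.19 and -1.07 against 0.95.

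**Figure D3:**
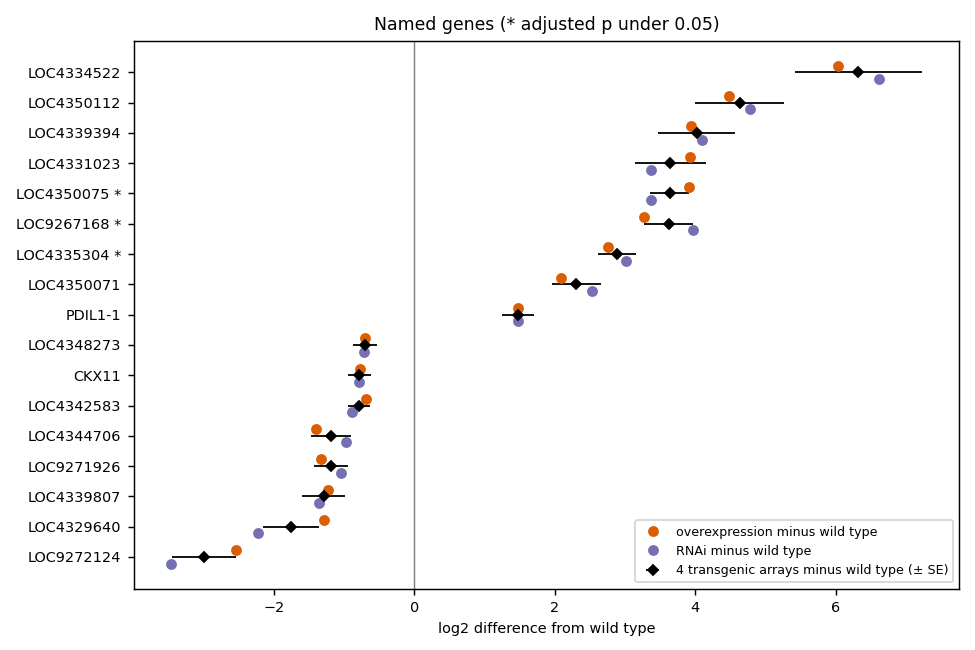
Log2 difference from wild type of the named loci, with the pooled transgenic change as a diamond (± SE), the overexpression line in orange and the RNAi line in violet. The lines lie close to each other at most loci, and an asterisk marks the 3 loci whose pooled change passed.

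The gene lists, 36 pathways and families with 824 measured genes, held none of the calls. Over the 16691 genes measured, taking the brightest probe set of each, 2 (0.012%) were called. LOC9267168 was not among them, because its brightest probe set, with a log2 change of 0.98, did not pass. At an unadjusted p under 0.05, 18 list genes were higher and 12 lower, beside 265 (1.59%) and 246 (1.47%) of all genes. The groups did not overlap for 27 list genes that were higher (3.28%) and 59 that were lower (7.16%), against 4.25% and 6.34% of all genes. These shares were near the background, so the lists as a whole did not stand apart.

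**Figure D4:**
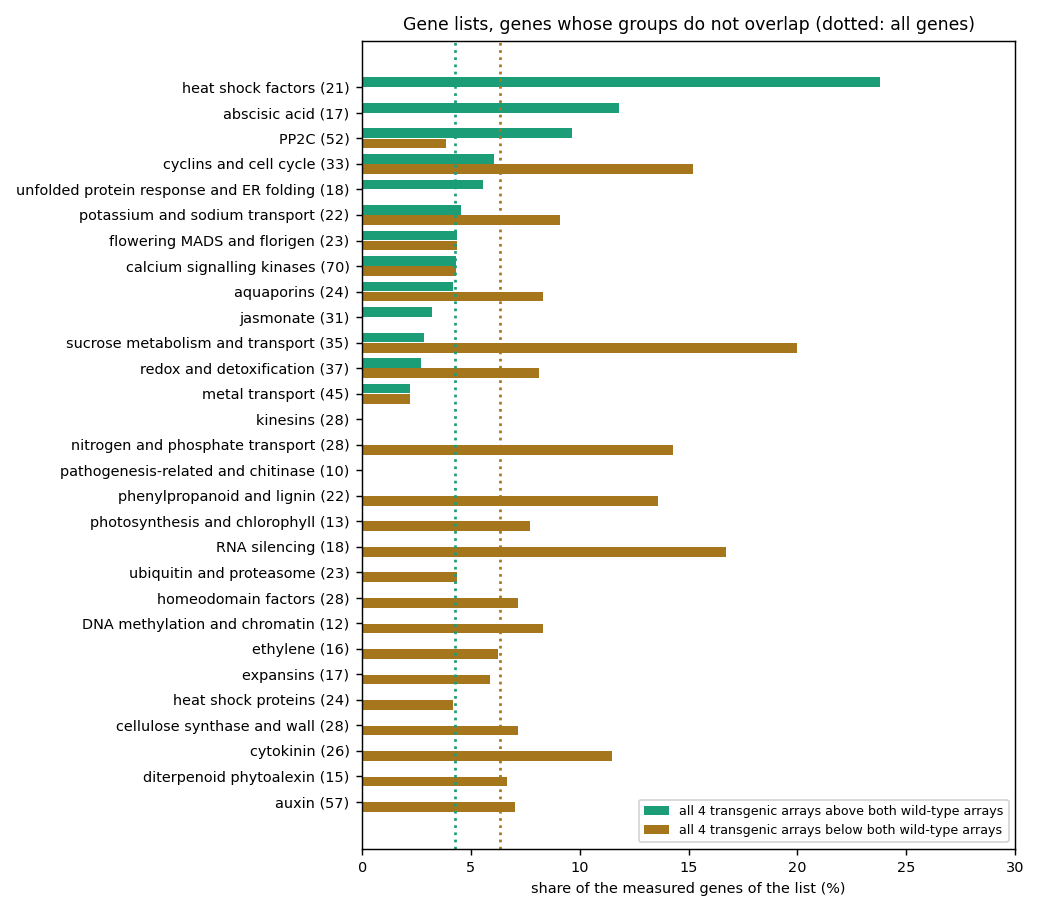
Share of the measured genes of each list of 10 or more genes (number in brackets) whose 4 transgenic arrays all lie above (green) or all below (brown) both wild-type arrays, with dotted lines at the shares over all genes, 4.25% and 6.34%. Heat shock factors reach the highest green share, 23.8%, and sucrose metabolism and transport the highest brown share, 20%.

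Heat shock factors, which bind heat shock elements in promoters and switch on chaperone genes, mostly had small positive differences in both lines. The median log2 change over 21 factors was 0.26 (0.33 in the overexpression line and 0.32 in the RNAi line), beside -0.01 over all genes. All 4 transgenic arrays lay above both wild-type arrays for 5 of the 21, beside a background of 4.25%, and none lay below. HSF07 had 8.31 and 8.38 in the overexpression line and 8.46 and 8.92 in the RNAi line, against 7.38 and 7.55 in wild type (log2 1.05 ± 0.27). HSF1 had 8.36 and 8.57 in the overexpression line and 8.26 and 8.03 in the RNAi line, against 7.0 and 7.73 in wild type. The other 3 were HSF05, HSF09 and HSF12 (LOC4344063), with log2 changes of 0.65, 0.36 and 0.92. None of the 5 passed over all probe sets (limma, adjusted p = 1). Heat shock proteins, the chaperones themselves, had a median of 0.02, with none of 24 genes above wild type without overlap and 1 below.

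Abscisic acid, the hormone of drought and seed dormancy, acts through receptors that inhibit protein phosphatases 2C, which frees SnRK2 kinases to activate ABF transcription factors. A few genes of the abscisic acid list, and a few phosphatases 2C, lay above wild type in both lines. The phosphatases were listed by family name, so they need not all act in this pathway. ABF2 had 11.39 and 11.54 in the overexpression line and 11.74 and 12.22 in the RNAi line, against 10.94 and 10.77 in wild type (log2 0.87 ± 0.25). The kinase gene SAPK2 had a log2 change of 0.38 ± 0.19. The other SAPK kinase genes overlapped wild type, with changes in both directions, from -0.37 (SAPK7) to 0.28 (SAPK6). ABF2 and SAPK2 were 2 of 17 genes of the abscisic acid list (11.8%), with none below wild type. The rest of this list overlapped wild type, among them the receptor gene PYL11 (log2 0.05), ABA1 (-0.03) and RAB21 (1.80). Of 52 phosphatases 2C, 5 lay above wild type (9.62%) and 2 below (3.85%) without overlap. Over all genes the shares were 4.25% above and 6.34% below. PP2C09 had 10.06 and 10.29 in the overexpression line and 11.19 and 11.31 in the RNAi line, against 9.65 and 9.64 in wild type, so the RNAi arrays were well above the overexpression arrays (limma, adjusted p = 0.018 between lines). PP2C26 had almost the same change in the overexpression line (0.46) and the RNAi line (0.44). No gene of either list passed the pooled test.

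Gibberellin, which drives stem growth, is made from ent-kaurene in successive oxidations. The 3 of 7 gibberellin genes that lay below wild type without overlap encode consecutive enzymes of this route: ent-kaurene synthase (KS1), ent-kaurene oxidase (KO2) and ent-kaurenoic acid oxidase (KAO). KAO had 7.45 and 7.58 in the overexpression line and 7.56 and 7.24 in the RNAi line, against 8.77 and 7.98 in wild type (log2 -0.92 ± 0.30). KO2 had 8.53 and 8.54 in the overexpression line and 8.85 and 8.51 in the RNAi line, against 8.99 and 9.47 in wild type (-0.62 ± 0.24). KS1 differed least, by -0.27 in the overexpression line and -0.26 in the RNAi line. None of them passed (limma, adjusted p = 1), and with arrays centred on their medians 1 of the 7 lay below without overlap. The share of all genes below was 6.34%, or 4.54% after centring.

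Several sugar genes lay on the lower side in both lines. Of 35 genes of sucrose metabolism and transport, 7 (20%) lay below wild type without overlap and 1 above, beside 6.34% and 4.25% of all genes, and with arrays centred on their medians 5 lay below, beside 4.54%. The 7 were the sugar transporter genes SWEET2a, SWEET2b, SWEET4 and SWEET14, the sucrose importer SUT1, the invertase CIN7 and AGPS2. AGPS2 is a small subunit of the starch enzyme ADP-glucose pyrophosphorylase. SWEET14 had 8.28 and 9.01 in the overexpression line and 9.35 and 7.25 in the RNAi line, against 9.60 and 9.70 in wild type. SWEET4 had 13.60 and 13.58 in the overexpression line, 12.71 and 10.92 in the RNAi line and 13.79 and 13.82 in wild type, so its overexpression values were barely below wild type. SWEET11, which also encodes a sugar transporter, was the gene that lay above. It had 10.93 and 7.29 in the overexpression line and 5.18 and 4.68 in the RNAi line, against 2.61 and 3.64 in wild type, and its replicates in the overexpression line were far apart.

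Other lists had a few members without overlap. Beside the 6.34% of all genes, 3 of 18 RNA silencing genes (AGO14, DCL2A and RDR2, 16.7%) lay below wild type. Of 33 cell cycle genes 5 lay below (15.2%) and 2 above, but with arrays centred on their medians it was 2 below and 2 above. Of 28 genes of nitrogen and phosphate transport 4 lay below (14.3%), among them the ammonium transporter AMT1 (log2 -0.31) and the nitrate transporter NRT2.2 (-0.91). The clock gene GI had 11.82 and 11.98 in the overexpression line and 12.27 and 12.10 in the RNAi line, against 11.41 and 11.40 in wild type. In some lists the median differed in direction between the lines. The median of 28 kinesins, the motor proteins that move along microtubules, was 0.51 in the overexpression line and -0.56 in the RNAi line, and none of them lay outside wild type in all 4 arrays. For 28 genes of cellulose synthesis and the wall the medians were 0.38 in the overexpression line and -1.07 in the RNAi line, with 2 (7.14%) below wild type without overlap. Diterpenoid phytoalexin genes had -1.02 in the overexpression line and 0.04 in the RNAi line, with 1 of 15 (6.67%) below. Both shares were near that of all genes.

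On the values as deposited, both lines differed from wild type by 2-fold or more the same way, without overlap, for 12 list genes: 4 higher (0.485% of the list genes) and 8 lower (0.971%), beside 0.905% and 0.473% of all genes. With group means under 5 counted as 5, 7 of the 12 remained: PDIL1-1, HAK14 and MADS1 were higher (0.364%, beside 0.425% of all genes), and PIP2-7, SWEET14, CSLF2 and LAC7 were lower (0.485%, beside 0.27%). The 4 higher genes were PDIL1-1, SWEET11, the potassium transporter HAK14 and the floral MADS-box gene MADS1. HAK14 had 6.31 and 6.39 in the overexpression line and 7.36 and 7.09 in the RNAi line, against 5.7 and 3.93 in wild type. The 8 lower genes included PIP2-7, an aquaporin, with 12.93 and 12.78 in the overexpression line and 12.31 and 13.16 in the RNAi line, against 14.37 and 13.50 in wild type. The laccase gene LAC7, of a family that polymerises lignin, had 9.86 and 10.67 in the overexpression line and 9.35 and 6.15 in the RNAi line, against 14.16 and 11.21 in wild type. Its replicates were far apart in the RNAi line and in wild type. The auxin repressor IAA20 (LOC4340245; another locus of that name, LOC4327919, had a log2 difference of 1.34), the expansin EXPA3, the diterpene synthase gene KSL7, the wall glucan synthase gene CSLF2, AGO14 and SWEET14 made up the rest, and all of them except SWEET14 had transgenic means under the floor. Such dim genes could pass the filter through their wild-type values alone. Among the 12, adjusted p-values from limma were 0.374 for PDIL1-1 and 1 for the other 11.

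**Figure D5:**
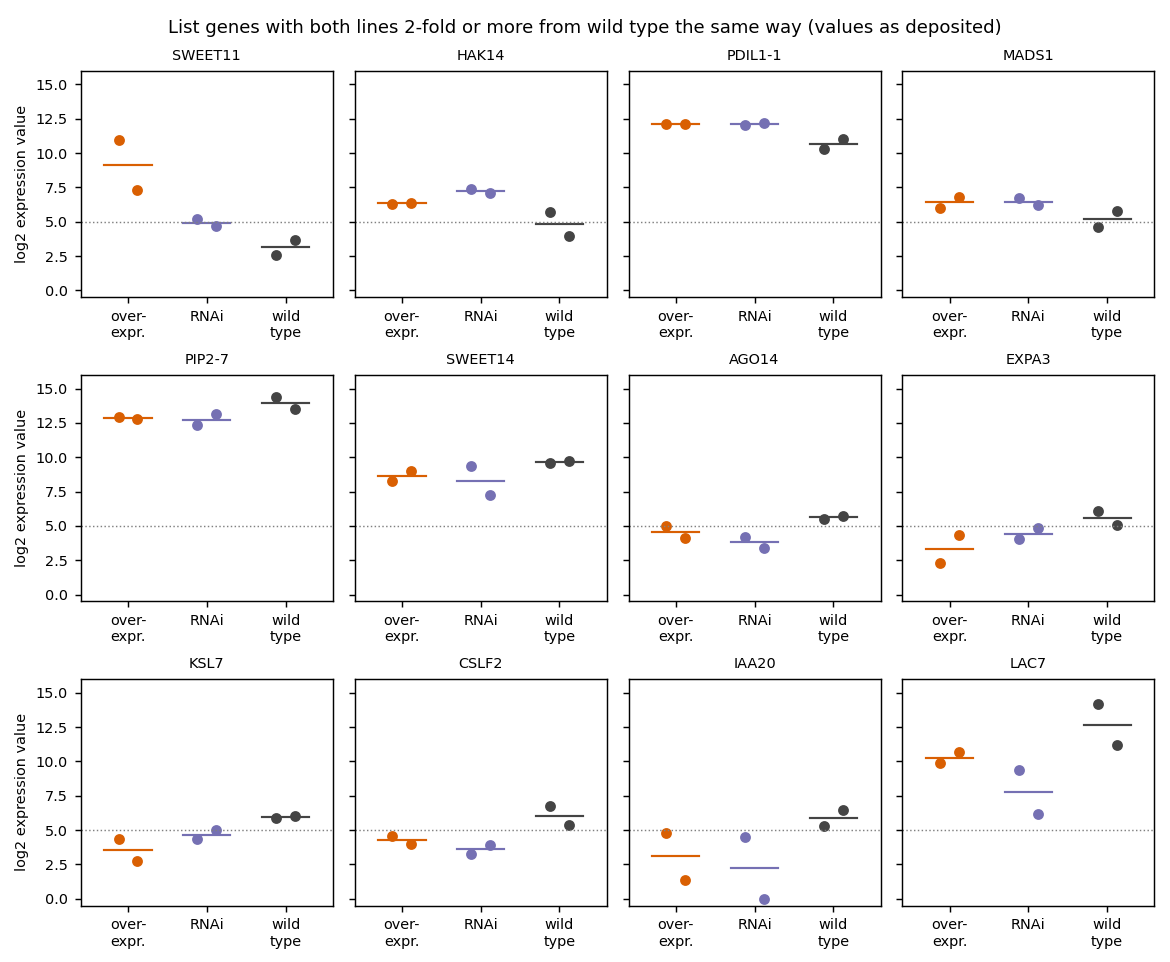
Log2 expression values of the 12 list genes with both lines 2-fold or more from wild type in the same direction on the values as deposited, with points for single arrays, a bar at each group's mean and a dotted line at the log2 floor of 5. SWEET11 and LAC7 have replicates far apart, PDIL1-1 has 4 nearly equal transgenic values, and 5 of the 8 lower genes lie under the floor on all transgenic arrays or all but 1.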

How the data were processed

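Expression was measured on 6 one-colour rice arrays. The authors deposited a table of log2 values for 57381 probe sets; RMA is named per the submitters' processing notes, without a version. The deposited table holds 329 to 614 exact zeros per array, which RMA does not usually give, so how probes were summarised is not given in the sources used here. It has no detection calls, and the number of arrays limits the precision. Values were used as deposited. The 123 control and 64 reporter probe sets were left out, and 40466 of the other 57194 reached log2 5 on at least 2 arrays and were tested. Of those 57194, GEO's platform annotation gives 1 gene for 22436, several for 95 and none for 34663. All 17905 genes matched RefSeq (ASM3414082v1), which names 2431 of them. No value column was without a sample.

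Tests used limma 3.58.1 in R 4.3.3 with an intensity trend, 2-sided, with Benjamini-Hochberg adjustment over all tested probe sets. The pooled fit had 2 groups, and line comparisons came from 1 fit of 3 group means. Group means under log2 5 were counted as 5 for an "at least" fold. Nothing beyond the term biological replicates says how replicates were grown, so p-values measure the spread between these arrays. The fit was also run on simulated data, with a spread taken from the wild-type arrays and no difference between the lines. That run therefore does not show how the pooled fit behaves where the lines differ.

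Named genes were to be the 12 largest called rises and falls with 1 gene, and the 10 largest with a gene name. With under 5 called in a direction, the rule took the 8 smallest p-values with groups that do not overlap. Up to 4 called members of each list were to be added. Called probe sets without a gene, calls of the 3-mean contrast and list genes that were not called are named outside this rule, chosen after their values were seen. Members and lists were chosen with earlier results of these data known.

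Alternatives were no trend, the 3-mean model, line as a random block, a replicate block, other filters and scalings, array weights, a 2-fold limit, averaged probe sets, each array left out, and a floor chosen after seeing the data. Replicate numbers did not pair the samples.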

Additional observations from a re-analysis of the deposited data

Results flagged for a closer look

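Among the 64 reporter probe sets, which target no rice gene and were left out of the tests, RPTR-Os-K01193-1_at was high in both lines. Its log2 values were 13.96 and 14.41 in the overexpression line and 13.40 and 12.91 in the RNAi line. On the wild-type arrays it had 3.12 and 2.97. Its mean was 13.67 ± 0.65 over the transgenic arrays (SD, n = 4) and 3.05 ± 0.11 in wild type (n = 2), at least 408-fold higher with wild type counted at log2 5. It is given here because the signal lies in probe sets that no comparison used and stands far above the wild-type level. A second reporter, RPTR-Os-A00196-1_s_at, was high in the RNAi line alone, with 13.22 and 13.64. It had 3.59 and 5.09 in the overexpression line and 5.15 and 3.50 in wild type. These were the only 2 reporters that reached log2 8 on any array, and the labels do not say what either line's vector carries. Which sequences the 2 reporters match was not tested.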

How the results depend on the processing

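Against the 8 calls of the pooled test, all with groups that do not overlap and 3 of them on named loci, no trend gave 0 calls, 0 without overlap and 0 named, and the line contrasts then gave 0 (overexpression against wild type), 1 (RNAi against wild type) and 5 (overexpression against RNAi). The model of 3 group means gave 28 calls, 23 without overlap. Line as a random block gave 5, 5 and 1 on a named locus, and arrays centred on their medians also 5, 5 and 1. A filter at log2 6, a filter on the mean and averaged probe sets of a gene each left 1 named locus. The replicate block gave 3, 3 and 0. Its numbers did not pair the samples: correlations of replicate 1 minus 2 were -0.0098 (overexpression and RNAi), 0.037 (overexpression and wild type) and -0.033 (RNAi and wild type).

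With single arrays left out, the pooled calls ranged from 0 to 6, those without overlap from 0 to 6, named loci from 0 to 1 and called list genes from 0 to 1. Overexpression against wild type ranged from 0 to 218, RNAi against wild type from 8 to 714, and overexpression against RNAi from 274 to 1815. The lone array of a reduced group was assumed to vary like the other groups. No named log2 change reversed: 333 values stayed on their side of the threshold, 62 no longer passed and 2 passed newly. Every value that no longer passed belonged to a pooled call. The values that stayed include those of named loci that had not passed in the main fit, so their number does not measure how stable the calls were. The cause of the differences between these fits was not tested.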

Other observations

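Of the 9 loci named on the higher side, PDIL1-1 included, 5 lie on 1 chromosome in RefSeq's gene order: PDIL1-1, LOC9267168, LOC4350071, LOC4350075 and LOC4350112, at 0, 9, 80, 83 and 122 protein-coding genes from the first. The stretch holds 123 annotated protein-coding genes, of which 54 were measured. The other 49 measured genes had a median log2 change of -0.04, with 3 above and 4 below wild type without overlap. Over all genes the shares were 4.25% above and 6.34% below. The placing of the 5 loci was noticed after the values were seen and was not tested.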
